A study of Mus musculus with 3 samples.

Results

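The integrin chains described here are 10 genes that encode receptors by which T cells leave the blood, hold to other cells and bind to matrix: Itga1, Itga4, Itga6, Itgae, Itgal, Itgav, Itgb1, Itgb2, Itgb3 and Itgb7. They were taken as named genes, and their probes were found by matching the transcript accession of each probe to the RefSeq gene table. Of the 10 genes 9 had a probe, with 15 probes in all out of 55681 on the array, while Itgae, the alpha chain of CD103, had no match and is not analysed here. On all 3 arrays 14 of the 15 probes were well above background, the scanner software's mark for a spot clearly brighter than its surroundings, and these 14 cover all 9 genes.

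CD4+ T cells were profiled on day 2 after stimulation. The 3 groups were cells of Dll1 -/- mice (Dll1 KO), of Rbpj -/- mice (Rbpj KO) and of wild-type mice (WT), all from female C57BL/6 animals aged 8 weeks, and each group has 1 array. Dll1 is a ligand of Notch receptors, Rbpj carries the cleaved Notch fragment to DNA, and the title of the series concerns survival signals passed through Dll1 on activated helper T cells. The labels used here do not say in which cell type each deletion was made, or how many mice stand behind an array.

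An integrin is a pair of an alpha and a beta chain, and the chains reach the cell surface only as pairs. Itgal with Itgb2 forms LFA-1, which binds ICAM molecules in firm arrest on endothelium and in contacts with antigen-presenting cells. Itga4 pairs with Itgb1 in VLA-4, the receptor for VCAM-1 and fibronectin, and with Itgb7 in the gut homing receptor for MAdCAM-1. Itga1, Itga6 and Itgav pair with Itgb1 to bind collagen, laminin and RGD-bearing matrix proteins in turn, and Itgav with Itgb3 forms the vitronectin receptor. Arrays read mRNA, so surface receptors were not measured.

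Levels are log2 of the background-subtracted signal minus the array's 75th percentile, so a difference of 1 is a doubling relative to the rest of the array. Levels of different probes are not set against each other, since each probe has its own response. Each group being a single array, nothing here could be tested against replicates, and p-values are left out. The nearest measure of error is the spread between repeated spots of a probe on an array, with a 95th percentile of 0.24 log2 on the Dll1 KO and Rbpj KO arrays and 0.20 on the WT array, and this covers spot error only. A probe was counted as apart when it differed by at least 1.5-fold (0.58 log2). A probe's position is given by its row, since differences were more frequent in rows 1 to 192 of 384, where 14.0% of probes were apart between Rbpj KO and WT, than in rows 193 to 384, with 11.9%.

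The arrays were alike in depth, with 46.6% to 50.1% of probes well above background, and no spot was saturated. All 7 markers of CD4 T cells (Cd4, Cd3d, Cd3e, Cd3g, Cd28, Lck and Cd5) were well above background on the 3 arrays. The Rbpj probes were at -0.35 and -0.66 in the Rbpj KO against WT, while the Dll1 probe stayed below that mark in every group. The labels do not say whether these probes read deleted sequence.

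As means of measured probes, 5 of the 9 integrin genes were at least 1.5-fold apart between Rbpj KO and WT, in opposite directions. Of all single probes 12.9% were this far apart, and the share of all genes by such means was not computed. Itga4 and Itgb1, the chains of VLA-4, were each higher by about 1 log2 unit, at 2.06-fold and 1.93-fold as means of their probes. Itgav was 1.55-fold higher, but its probe in row 126 was at 1.45-fold. Under some other processing settings, given below, neither Itgav probe passed 1.5-fold. Itgb3 was 2.23-fold lower and Itga1 2.07-fold lower. The Itga1 value rests on its probe in row 126 alone, since its probe in row 206 was dim throughout, with signals of 2.76 to 3.91. These fold differences come from bulk RNA, where fewer cells of a type and less RNA per cell cannot be told apart. Both chains of LFA-1, Itgal and Itgb2, and the gut homing chain Itgb7 lay within 1.13-fold of WT. The Dll1 KO array showed none of this, and its 14 probes all lay within 1.36-fold of WT.

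Of the 14 probes, 8 were apart in the Rbpj KO against WT, 5 higher and 3 lower, where 12.9% of 24471 probes were apart, 5.77% higher and 7.16% lower. In rows 1 to 192 the count was 5 of 6, beside 14.0% of all probes there, and in rows 193 to 384 it was 3 of 8, beside 11.9%. In the Dll1 KO against WT 0 of 14 were apart, against 5.1% of 25137 probes. Between the Rbpj KO and the Dll1 KO 7 of 14 were apart, 4 higher and 3 lower, against 12.5% of 25349, with 6.2% higher and 6.29% lower, and in rows 193 to 384 it was 2 of 8, against 11.8%. At 2-fold the counts were 0 in the Dll1 KO against WT, 3 in the Rbpj KO against WT and 4 between the knockouts, beside 1.03%, 3.7% and 4.58% of all probes. The median of the signed differences hides this, since the genes went both ways: it was -0.10 in the Rbpj KO against WT, beside -0.05 for all probes, and -0.05 in the Dll1 KO, beside -0.02. The median size of the difference, without its sign, was 0.75 log2 for the integrin probes in the Rbpj KO and 0.22 for all probes. In the Dll1 KO it was 0.13 for the integrin probes and 0.15 for all probes. Both knockouts are set against the same WT array, so a reading particular to that array would enter both comparisons.

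**Figure D1:**
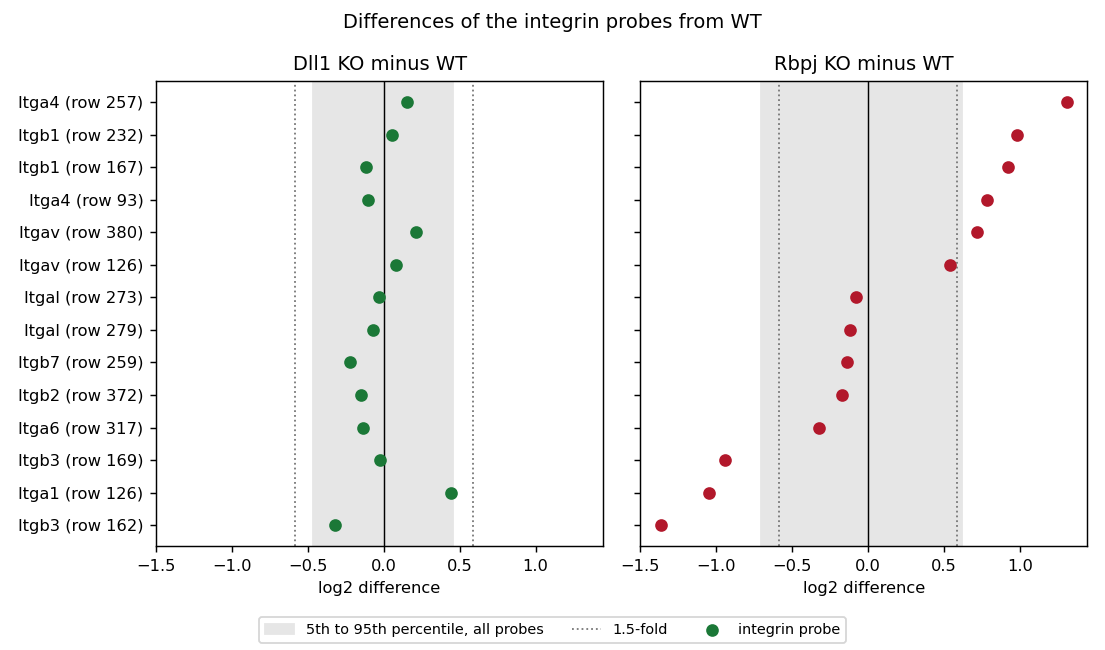
Log2 difference of each of the 14 integrin probes from the WT array, in the Dll1 KO (left) and the Rbpj KO (right); grey bands span the 5th to 95th percentile of all probes well above background on both arrays, and dotted lines mark 1.5-fold. Points in the left panel stay between -0.32 and 0.44, while those in the right panel reach from -1.37 for Itgb3 to 1.31 for Itga4.

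The alpha chain Itga4 and the beta chain Itgb1 were read by a pair of probes each, with 1 probe of each pair in rows 1 to 192 and the other in rows 193 to 384. The Itga4 probe in row 93 had a level of 4.54 in Dll1 KO cells and 5.43 in Rbpj KO cells, against 4.65 in WT. The Itga4 probe in row 257 had -0.57 in Dll1 KO cells and 0.58 in Rbpj KO cells, against -0.73 in WT. The Rbpj KO was thus the highest of the 3 arrays by both probes, with the Dll1 KO and WT close together. The differences from WT were 0.78 and 1.31 in the Rbpj KO, and -0.10 and 0.15 in the Dll1 KO, so the probes gave the same direction in the first case and opposite signs in the second. For the probe in row 257, 0.548% of all probes were at least as far above WT in the Rbpj KO.

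Itgb1, the common beta chain of the VLA receptors, followed the same order. Its probe in row 167 had a level of -1.07 in Dll1 KO cells and -0.03 in Rbpj KO cells, against -0.95 in WT. Its probe in row 232 had 0.37 in Dll1 KO cells and 1.29 in Rbpj KO cells, against 0.32 in WT. The Rbpj KO stood above both other arrays by 0.92 to 1.04 log2 whichever probe and array was taken, and the Dll1 KO differed from WT by -0.12 and 0.05. Of all probes 1.67% and 1.39% were at least as far above WT in the Rbpj KO as these. With normexp background correction, which adds an offset and so narrows differences of dim probes, the probe in row 167 was at 0.56, just short of 1.5-fold.

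Itgav, the alpha chain of the RGD-binding receptors, was higher by less. Its levels were -1.44 in Dll1 KO cells and -0.99 in Rbpj KO cells, against -1.53 in WT, by the probe in row 126. By the probe in row 380 they were -1.16 in Dll1 KO cells and -0.65 in Rbpj KO cells, against -1.37 in WT. The Rbpj KO was again the highest array, by 0.54 and 0.72 over WT, and only the probe in row 380 passed 1.5-fold. After normexp background correction with quantile normalization these differences were 0.23 and 0.41, and with median scaling 0.37 and 0.55, so neither passed.

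Promoter sequence upstream of the 3 genes that were higher is given below, because the arrays contrast the presence and loss of a DNA-binding protein. The RefSeq promoter table for GRCm38.p6 held 5 of the 10 genes (Itga1, Itga4, Itgav, Itgb1 and Itgb7). For each, the 250 bases before the start the table uses were searched on both strands for the Rbpj core TGGGAA and for TGTGGT, a core of Runx factors. Capitals mark matches, and the stretches lie at chr2:79255176-79255425, chr2:83724147-83724396 and chr8:128685404-128685653, all on the plus strand.
Itga4: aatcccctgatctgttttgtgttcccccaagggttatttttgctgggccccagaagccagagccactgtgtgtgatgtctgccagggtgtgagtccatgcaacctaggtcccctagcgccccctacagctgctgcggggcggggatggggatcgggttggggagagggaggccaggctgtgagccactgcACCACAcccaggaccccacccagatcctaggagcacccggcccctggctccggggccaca
Itgav: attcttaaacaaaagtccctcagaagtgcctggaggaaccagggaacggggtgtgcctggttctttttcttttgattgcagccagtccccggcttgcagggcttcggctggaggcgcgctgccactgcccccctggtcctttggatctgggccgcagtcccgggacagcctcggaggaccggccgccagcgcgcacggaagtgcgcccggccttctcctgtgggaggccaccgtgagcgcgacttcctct
Itgb1: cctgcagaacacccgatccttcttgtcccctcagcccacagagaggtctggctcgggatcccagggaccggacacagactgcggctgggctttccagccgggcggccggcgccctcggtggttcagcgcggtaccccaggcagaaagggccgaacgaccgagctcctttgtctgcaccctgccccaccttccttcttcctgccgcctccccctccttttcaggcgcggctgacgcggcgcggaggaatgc
TGGGAA was in 0 of the 5 windows, against 21.6% of 32851 promoters of this length. TGTGGT was in 1 of the 5, in Itga4, as ACCACA on the printed strand from 60 bases before the start, overlapping no other match, against 14.0% of all promoters. These letters describe the windows alone, and sites elsewhere in the genes were not searched.

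Itgb3 was the beta chain with the largest difference in the Rbpj KO. Its probe in row 162 had a level of 4.17 in Dll1 KO cells and 3.12 in Rbpj KO cells, against 4.49 in WT. Its probe in row 169 had -0.42 in Dll1 KO cells and -1.34 in Rbpj KO cells, against -0.40 in WT. By both probes the Rbpj KO was the lowest array, at -1.37 and -0.94 relative to WT and at -1.05 and -0.92 relative to the Dll1 KO. Of all probes 0.756% and 2.77% were at least as far below WT. Both Itgb3 probes lie in rows 1 to 192, so rows 193 to 384 give no reading of this gene. The probe in row 169 was at -0.59 after normexp with quantile normalization and at -0.56, inside 1.5-fold, after normexp with 75th percentile scaling.

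Itga1, the collagen-binding alpha chain also known as CD49a, rested on 1 probe. The probe in row 126 had a level of 7.28 in Dll1 KO cells and 5.79 in Rbpj KO cells, against 6.84 in WT. The Rbpj KO was lowest, at -1.05 relative to WT and -1.49 relative to the Dll1 KO, and the Dll1 KO was highest, at 0.44 over WT. That 0.44 was the largest difference of any integrin probe in the Dll1 KO, and 5.29% of all probes were at least as far above WT there. The other Itga1 probe, in row 206, never passed the background mark, and its processed signals were 2.76 in the Dll1 KO, 3.24 in the Rbpj KO and 3.91 in WT. The 2 probes thus disagree on whether Itga1 mRNA was detected, and the files do not say which stretch of the transcript each one reads.

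**Figure D2:**
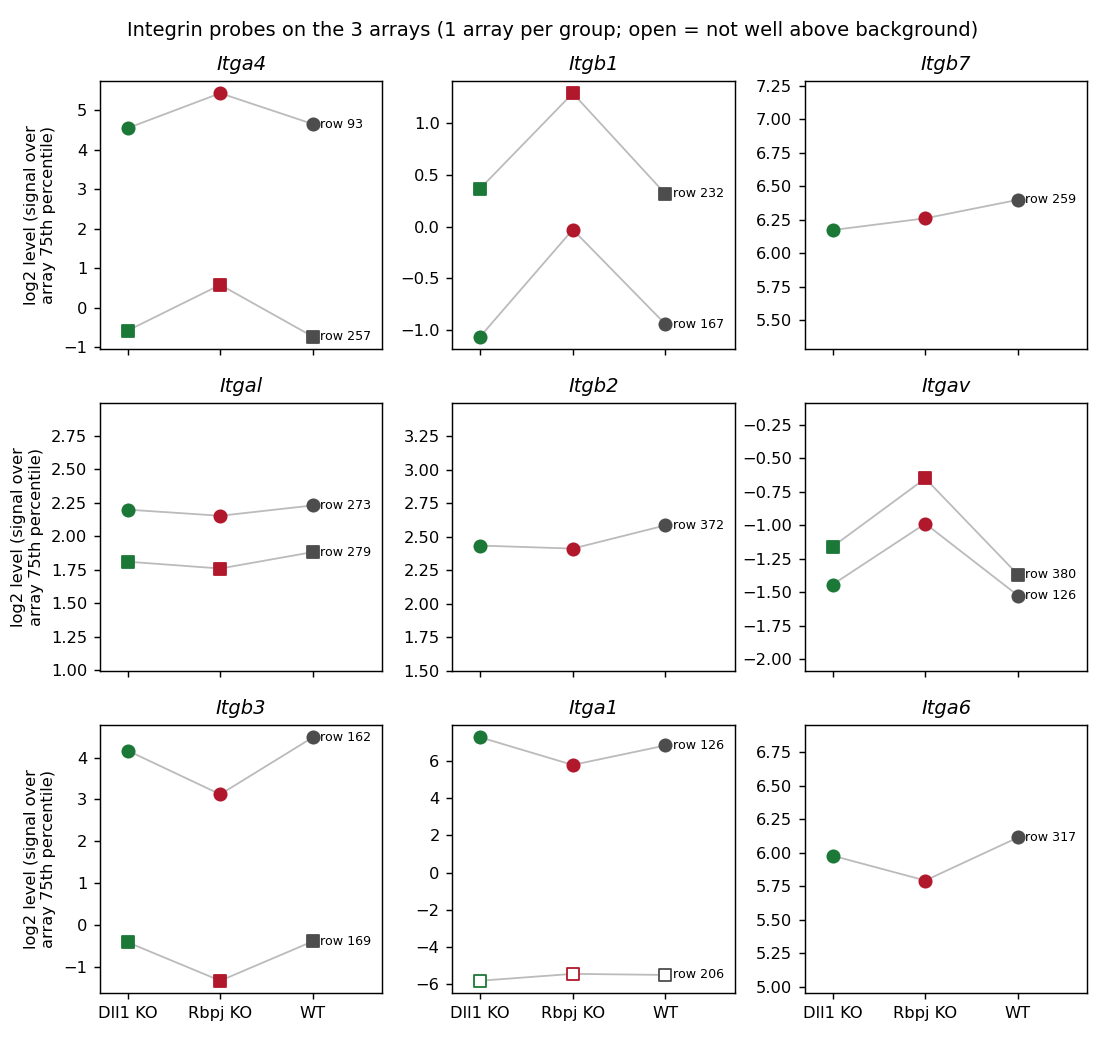
Log2 level, relative to the array's 75th percentile, of every integrin probe on the Dll1 KO, Rbpj KO and WT arrays, with a panel and a y scale for each gene, each probe marked by its row and joined by a grey line, and open symbols for signals not well above background. The Rbpj KO is the highest array for Itga4, Itgb1 and Itgav and the lowest for Itgb3 and for the Itga1 probe in row 126.

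The LFA-1 chains differed little. The Itgal probes had levels of 2.20 and 1.81 in Dll1 KO cells and 2.15 and 1.76 in Rbpj KO cells, against 2.23 and 1.88 in WT. The Itgb2 probe had 2.43 in Dll1 KO cells and 2.41 in Rbpj KO cells, against 2.59 in WT. The 2 knockout arrays lay 0.02 to 0.05 log2 apart on these 3 probes. WT was the highest array on each, by at most 0.17, which is within the spread of repeated spots. The sign was not stable for Itgal, whose probes reached 0.09 and 0.01 in the Rbpj KO against WT under other settings, while Itgb2 stayed between -0.76 and -0.04.

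Itgb7 and Itga6 also stayed inside 1.5-fold. Itgb7, the beta chain of the gut homing receptors, had a level of 6.17 in Dll1 KO cells and 6.26 in Rbpj KO cells, against 6.40 in WT. Itga6, the laminin-binding alpha chain, had 5.98 in Dll1 KO cells and 5.79 in Rbpj KO cells, against 6.11 in WT. For Itgb7 the distance to WT was -0.23 in Dll1 KO cells and -0.14 in Rbpj KO cells, within the spot spread, and the second of these reached 0.07 with normexp and quantile normalization. For Itga6 it was -0.14 in Dll1 KO cells and -0.32 in Rbpj KO cells, and 18.4% of all probes were at least as far below WT in the Rbpj KO.

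Set out as receptors, the 2 chains of a pair differed alike in some cases and oppositely in others. For VLA-4 the Rbpj KO differences from WT were 1.05 for Itga4 and 0.95 for Itgb1, a gap of 0.10 between the chains. For LFA-1 they were -0.10 for Itgal and -0.17 for Itgb2, a gap of 0.07. For the Itga4 and Itgb7 pair the gap was 1.18, with Itga4 higher and Itgb7 within 1.5-fold. The Itgav and Itgb3 chains of the vitronectin receptor lay 1.78 apart, at 0.63 for the alpha chain and -1.16 for the beta chain. Itga1 and Itgb1 differed by -2.00 and Itga6 and Itgb1 by -1.27, with the alpha chain lower in each. In the Dll1 KO the gaps of the 7 receptors ran from -0.10 for Itga6 with Itgb1 to 0.48 for Itga1 with Itgb1. A gap between chains is free of any constant taken from a whole array.

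**Figure D3:**
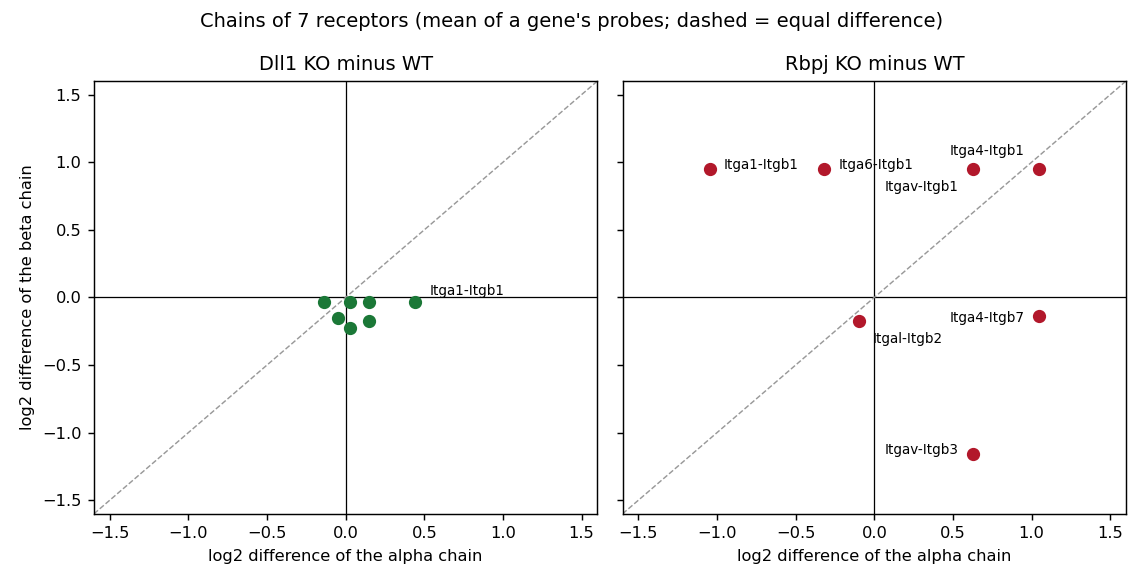
Log2 difference from WT of the alpha chain (x axis) against that of the beta chain (y axis) for 7 integrin receptors, as means over the probes of each gene well above background, in the Dll1 KO (left) and the Rbpj KO (right); the dashed line marks equal differences. In the Rbpj KO, Itga4-Itgb1 and Itgal-Itgb2 lie near the line, at 1.05 and 0.95 and at -0.10 and -0.17, while Itga1-Itgb1 and Itgav-Itgb3 lie in opposite quadrants.

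Scaling bears on the size of these differences and, for Itgav and the probes close to 0, on their direction. When arrays were scaled to the E1A spike-in spots, control RNA added in fixed amount, the median of all probes was -0.63 in the Rbpj KO against WT. Itga4 was then at 0.20 and 0.73, Itgb1 at 0.33 and 0.39, and Itgav at -0.05 and 0.13. On that scale Itgb3 was at -1.95 and -1.53, Itga1 at -1.63, and Itgal, Itgb2, Itgb7 and Itga6 between -0.91 and -0.66. The order of the genes is the same by construction, so "higher" above means higher relative to the rest of the array.

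**Figure D4:**
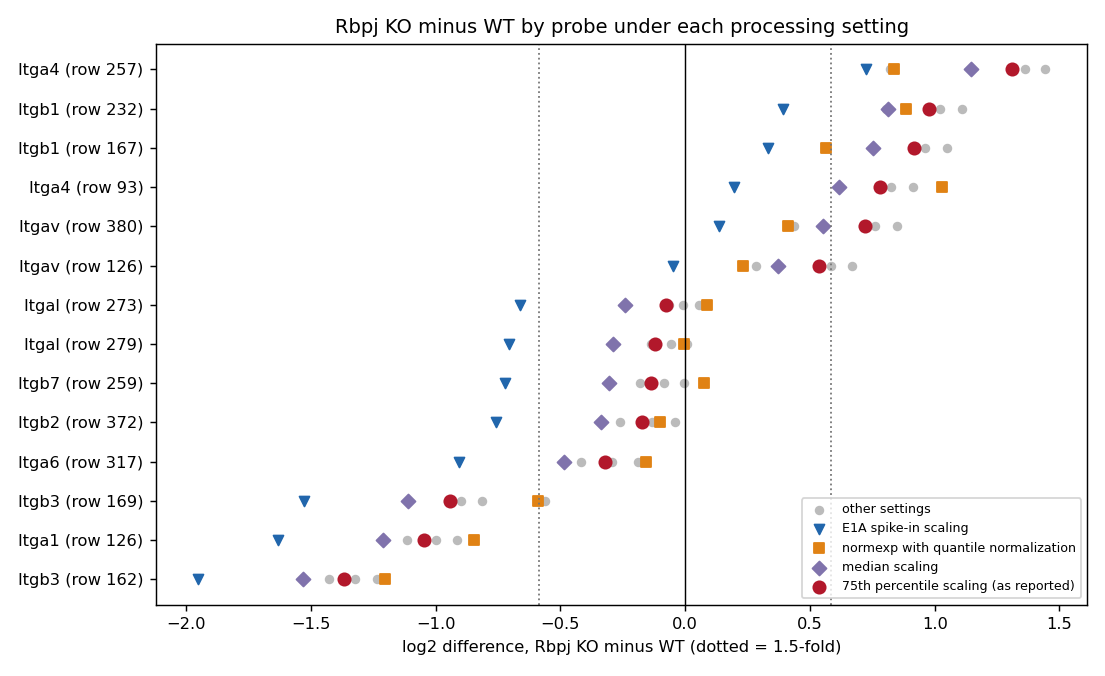
Log2 difference between Rbpj KO and WT for each of the 14 integrin probes as reported and under each other processing setting, with dotted lines at 1.5-fold. The Itga4 and Itgb1 probes stay above 0 and the Itgb3 and Itga1 probes below 0 in every setting shown, while the E1A spike-in value is the lowest of every probe and the Itga4 probe in row 257 spans 0.73 to 1.44.

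Other integrin chains were mostly below detection. Of 16 further chains looked for, 15 had probes and 3 (Itga5, Itga7 and Itgam) had a probe well above background on all 3 arrays, giving 4 probes. In the Rbpj KO 2 of these 4 were higher by 1.5-fold and 0 lower, against a background of 12.9% for either direction. Itga7, a laminin-binding chain best known from muscle, was at 1.23 in Rbpj KO cells and -0.17 in Dll1 KO cells against WT. Itgam, the CD11b chain of myeloid and NK cells, was at 0.66 in Rbpj KO cells and -0.42 in Dll1 KO cells by its probe in row 262. By its probe in row 124 it was at -0.41 in Rbpj KO cells and 0.07 in Dll1 KO cells, so the Itgam probes disagree in sign. Processed signals were 15463 to 29703 in row 262 but 19.8 to 33.1 in row 124. Another Itgam probe, in row 169, was dim in all 3 groups, so the probes also disagree on whether Itgam mRNA was detected. Macrophage markers summed to 5.26 in Dll1 KO cells and 5.42 in Rbpj KO cells, against 4.60 in WT, with Adgre1, Cd14 and Fcgr1 dim in all 3. Csf1r alone made up the sum in Rbpj KO cells and WT, while Lyz2 also passed the background mark in Dll1 KO cells. The part of macrophages in the Itgam values was not tested. Itga2b, the partner of Itgb3 in platelets, was dim in all 3 groups.

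Genes that activate integrins from inside the cell showed little difference. They include talin (Tln1) and kindlin-3 (Fermt3), which bind beta chain tails, and the Rap1 branch with Rasgrp2, Rap1b, Rassf5 and Apbb1ip. Of 38 measured probes for 29 genes, 1 was 1.5-fold higher and 1 lower in the Rbpj KO, and 1 higher and 0 lower in the Dll1 KO, beside 12.9% and 5.1% of all probes. The median was -0.05 in Rbpj KO cells and -0.08 in Dll1 KO cells, beside -0.05 and -0.02 for all probes. Cyth1, cytohesin-1, which binds the Itgb2 tail, was at -0.66 and -0.52 in the Rbpj KO by its 2 probes. Arap3, a GTPase-activating protein, was at 0.90 in the Rbpj KO, and the focal adhesion kinase gene Ptk2 was at 0.62 in the Dll1 KO. Fermt3 stood at -0.43 in Dll1 KO cells and -0.35 in Rbpj KO cells.

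Integrin ligands and other homing molecules went both ways. Of 26 measured probes in the Rbpj KO against WT, 4 were 1.5-fold higher and 6 lower, beside 5.77% and 7.16% of all probes. In the Dll1 KO 3 of 27 were higher and 2 lower, beside 5.1% of all probes in either direction. The median of the list was -0.14 in the Rbpj KO, beside -0.05 for all probes. Ccr6, the CCL20 receptor of Th17 and regulatory cells, was at 1.58 in Rbpj KO cells and 0.62 in Dll1 KO cells. Lama5, a laminin chain, was at 1.36 in Rbpj KO cells and 0.08 in Dll1 KO cells, and Gcnt1, which extends the glycans that selectins bind, was at 1.00 in Rbpj KO cells and 0.88 in Dll1 KO cells. Lower in the Rbpj KO were Icam1, a ligand of LFA-1, at -1.08, the lymphocyte sphingosine receptor gene S1pr4 at -0.77 and the chemokine receptor gene Ccr4 at -0.68. In the Dll1 KO these 3 were at -0.68, -0.86 and 0.40. Vcam1 and Fn1, ligands of VLA-4, were dim in all 3 groups.

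Markers of other T cells differed alongside the integrins in the Rbpj KO. Of 5 measured probes for CD8 T cell genes 4 were at least 1.5-fold lower, beside 7.16% of all probes: Cd160 at -1.80, Eomes at -1.34 and -1.09 and Cd8a at -1.29. The level summed on a linear scale, relative to the 75th percentile, over the probes of the list well above background on each array was 3.45 in the Rbpj KO, against 7.46 in WT. Most of this CD8 sum came from the Eomes probes on both arrays. Of 6 measured probes for regulatory T cell genes 4 were 1.5-fold higher, beside 5.77% of all probes: Ikzf2 (Helios) by 2 probes, the higher at 1.67, the lineage factor Foxp3 at 1.25 and Ctla4 at 0.89. The summed level was 129 in the Rbpj KO, against 106 in WT, and most of it came from Tnfrsf18 and Il2ra, at 0.21 and 0.06 relative to WT. In the Dll1 KO these sums were 6.91 for the CD8 list and 110 for the regulatory list. NK markers summed to 8.97 in Dll1 KO cells and 3.64 in Rbpj KO cells, against 6.56 in WT, with Ncr1 dim on all 3. Gzma, the granzyme A gene, was the brightest of them in WT and was at -3.07 in the Rbpj KO against WT. Of 5 measured NK probes 2 were 1.5-fold lower there and 0 higher, beside 7.16% and 5.77% of all probes, and Klrd1 went the other way, at 0.46. Klrb1c passed the background mark by its probe in row 273 in both knockouts but not in WT. The smaller NK sum of Rbpj KO cells rests on Gzma, whose level was 2.00 in WT and -1.07 in Rbpj KO cells. With Gzma left out, the sum would be larger for Rbpj KO cells, mostly through Klrd1, at 1.25 against 0.80 in WT. By single probes, 4 of the 5 measured, Gzma among them, were still below WT. The part of these cells in the integrin differences was not tested. Platelets also carry Itgb3, and of 8 platelet genes 6 were not well above background on any array (Gp1ba, Gp6, Gp9, Itga2b, Pf4 and Ppbp). The summed platelet level was 0.22 in Dll1 KO cells and 0.28 in Rbpj KO cells, against 0.13 in WT, but the WT sum lacks Gp1bb, which missed the background mark there alone, with signals of 16.1 in Dll1 KO cells and 16.7 in Rbpj KO cells, against 16.3 in WT. Treml1, measured in all 3 groups, had levels of -3.07 in Dll1 KO cells and -2.66 in Rbpj KO cells, against -2.97 in WT.

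For the integrin probes with the widest range over the 3 arrays, the named probes closest in pattern were sought within rows 1 to 192, where both integrin probes lie. Closeness was the smallest distance between their differences from WT. Over 3 arrays and 7271 probes, Dact3, Cradd and Igfbp4 lay 0.03, 0.04 and 0.05 log2 from Itga1, and Igfbp4 was at 0.49 in Dll1 KO cells and -1.07 in Rbpj KO cells. For the Itgb3 probe in row 162, Espl1, 4930473A02Rik and Kmt2d lay 0.08, 0.09 and 0.11 log2 away. With 3 arrays such likeness is a description of 2 differences and no more.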

How the data were processed

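Per the labels, RNA was labelled with Cy3 and hybridised to a 1-colour Agilent mouse array, 1 array per group. The authors' scanner files give, for every spot, a linear intensity that Feature Extraction had corrected for background and spatial trend (10.7 per the submitters' processing notes, 10.7.1.1 per the file headers), with spot and background medians beside it. A table with log2 values was also deposited. How it was scaled was read from its values: entries equalled the log2 intensity plus a constant for each array (-7.27, -7.14 and -7.47 for Dll1 KO, Rbpj KO and WT) within 0.01 for at least 99.9946% of probes, with medians of -3.40, -3.28 and -3.44, so high entries are bright spots and genes were not centred.

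Control and outlier spots were left out, spots of a probe were averaged as log2, and each array's 75th percentile was subtracted. Differences use probes well above background on both arrays, for integrins as for all probes. Probes were named through RefSeq accessions (GRCm38.p6 table, 27509 probes matched); the array was designed on another build, so gene coordinates are not given. A gene's value is the mean of its probes. The steps were tested on simulated data. Alternatives used limma 3.58.1 in R 4.3.3, Python 3.11.15 and pandas 2.3.3; normexp (offset 50) took spot medians, since the files hold no spot means. The integrin genes, lists and settings were chosen with earlier results of these data known. Genes named beside the integrins are, per list, at most 6 with a difference of at least 1.5-fold in any comparison, largest first; Itga2b, Itga5, Fermt3, Vcam1, Fn1, the pathway examples and the cell type markers were named outside this rule, some after their values were seen. Replicates were not available, so precision is limited by the number of arrays.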

Additional observations from a re-analysis of the deposited data

How the results depend on the processing

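With 1 array per group the precision is that of single arrays, and no replicate could be left out. No paired analysis was possible because each group has 1 array and no result comes from a test. The 42 single-probe differences (14 probes in 3 comparisons) were recomputed 405 times in all, and 356 stayed within the spot spread of 0.24 log2, 49 moved by more and 0 of those at least 1.5-fold apart changed sign. Outside E1A scaling 21 moved, all under normexp. The Dll1 KO count stayed at 0 of the measured probes in every setting run. In the Rbpj KO against WT the count of 8 became 5 with normexp and 75th percentile scaling (added after the data were seen), beside 5.46% of all probes. With normexp and quantile normalization it was 6, beside 4.89%. With the percentile over probes well above background on all 3 arrays it was 9, beside 14.2%. It became 4 of 9 in the upper part of levels, beside 8.12%, and 5 of 6 in rows 1 to 192, beside 14.0%. In rows 193 to 384 it was 3 of 8, beside 11.9%, and with 2-fold as the size 3, beside 3.7%. Between the knockouts the count of 7 became 4 of 9 in the upper levels, beside 7.53% of all probes. It became 2 of 8 in rows 193 to 384, beside 11.8%, and 4 with 2-fold, beside 4.58%. The last 4 settings test fewer probes or a larger size. With E1A scaling the medians were -0.68 in the Rbpj KO against WT and -0.39 against the Dll1 KO, where all probes had -0.63 and -0.43. The 9 of 14 calls against WT then split into 1 higher and 8 lower, against 5 and 3. On that scale 57.1% of all probes were apart, mostly lower, so the integrin count lay near the general share. In rows 1 to 192 the median between the knockouts was -0.23. With median scaling all probes shifted by -0.21 in the Rbpj KO against WT, and 4 integrin probes were higher and 3 lower, beside 15.7% of all probes in either direction. Over all probes the Rbpj KO comparison with WT gave 1411 higher and 1751 lower, against 498 and 699 with normexp and quantile normalization, 363 and 972 with normexp and 75th percentile scaling, 752 and 3083 with median scaling, 187 and 13783 with E1A scaling, 2293 and 1185 with the percentile over probes well above background on all 3 arrays, and 7243 and 5016 with no filter. The cause of these shifts was not tested.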
